A study of Mus musculus with 8 samples.

Results

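The Zfp genes of the mouse are named for the zinc finger, a short protein fold in which 2 cysteines and 2 histidines hold a zinc ion and the residues between them read DNA or, more rarely, RNA. The 248 genes described here are those whose name is Zfp followed by a number, leaving out names that begin with Zfp36, and whose normalized read count averaged at least 10 over the 8 libraries. They are 248 of the 10468 genes that reach this minimum and of the 11789 genes in the table. Another 47 Zfp genes of the table lie under the minimum. Just inside it are Zfp647 and Zfp3, and just outside it are Zfp90 with a mean of 9.95 and Zfp867 with a mean of 9.92. All 248 had at least 1 read in every library.

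The libraries are total RNA of whole pancreas from mice aged 6 weeks, 4 Daxx fl/fl Pdx1-Cre Tg mice, called Daxx deleted here, and 4 wild-type mice. The design text gives 2 females and 2 males per genotype, and the labels do not say which library is from which. The mean log2 level of 4 Y-linked genes was 0, 0.4, 5.3 and 6.2 in Daxx-deleted replicates 1 to 4. It was 0, 0, 6.1 and 6.2 in wild type. By these genes, replicates 1 and 2 of each genotype read as female and replicates 3 and 4 as male. Pdx1-Cre acts in the progenitors of acinar, ductal and islet cells and leaves vessels, stroma and immune cells with intact Daxx. No group carries Pdx1-Cre alone or the floxed alleles alone, so what the loss of Daxx, the Cre transgene and the alleles each do cannot be told apart. In whole tissue, fewer cells of a type and less RNA per cell cannot be told apart either.

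Many Zfp proteins carry a KRAB box before their fingers. This domain recruits Trim28, which in turn brings the H3K9 methyltransferase Setdb1 and HP1 proteins, so that the bound DNA, often a retroviral element or an imprinted locus, is packed into silent chromatin. Daxx works beside this pathway: with Atrx it deposits the histone variant H3.3 at repeats and telomeres, and it takes part in the silencing of retroviral elements. KRAB zinc finger genes lie in clusters of similar neighbours, and their own exons can be marked by H3K9 methylation. Members with a SCAN domain pair with one another through it, and those with neither domain include activators, RNA-binding proteins and ubiquitin ligases.

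The coding sequence of 1 finger each is shown for the 3 members with the smallest unadjusted p in either direction that hold a finger of the commonest spacing within 1 exon, since the finger is what the genes share. Each is 63 bases long, 5′ to 3′ on the coding strand, from GENCODE M21 transcripts on GRCm38. Capitals mark the codons of the 2 cysteines and the 2 histidines. Zfp13, Zfp142 and Zfp955b had higher means in Daxx-deleted pancreas.
Zfp13 (chr17:23576732-23576794, minus strand, finger 1 of 8): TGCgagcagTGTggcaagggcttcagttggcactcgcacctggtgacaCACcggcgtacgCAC
Zfp142 (chr1:74579650-74579712, minus strand, finger 2 of 36): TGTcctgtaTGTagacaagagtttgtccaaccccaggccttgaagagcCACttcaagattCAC
Zfp955b (chr17:33302336-33302398, plus strand, finger 1 of 10): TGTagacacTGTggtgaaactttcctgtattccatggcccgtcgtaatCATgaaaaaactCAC
Zfp637, Zfp944 and Zfp791 had lower means.
Zfp637 (chr6:117845186-117845248, plus strand, finger 1 of 6): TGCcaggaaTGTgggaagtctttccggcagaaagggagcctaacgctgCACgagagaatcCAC
Zfp944 (chr17:22339650-22339712, minus strand, finger 1 of 11): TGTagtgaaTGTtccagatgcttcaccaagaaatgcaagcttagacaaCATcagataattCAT
Zfp791 (chr8:85110862-85110924, minus strand, finger 1 of 15): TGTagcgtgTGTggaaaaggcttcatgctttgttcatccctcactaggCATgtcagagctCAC
The 15 pairs of these fingers share between 24 bases (Zfp142 and Zfp944) and 35 bases (Zfp955b and Zfp791), or 38.1% to 55.6%, position by position.

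By pattern, 243 of the 248 members hold at least 1 such finger, 228 hold at least 3, 136 hold at least 10 and 19 hold at least 20. The 5 with none by this pattern are Zfp330, Zfp503, Zfp703, Zfp750 and Zfp839. Of the members, 123 hold a KRAB box, 8 a SCAN domain without it and 117 neither. All are protein-coding.

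The libraries held 7705789 to 10517508 reads over the table's genes, of which 74.7% to 80.3% fell on the 20 most abundant genes. Acinar markers summed to 3795780 to 5542590 normalized counts in Daxx-deleted and 4652852 to 5401140 in wild-type libraries over 10 listed genes, and all 8 islet and all 8 ductal markers were listed, so the defining markers of pancreas were present. Stroma, endothelial and myeloid markers overlapped between the genotypes too. The members took 0.149% to 0.201% of the reads in Daxx-deleted libraries and 0.149% to 0.173% in wild type. A member therefore rests on few reads, with a median of 29 to 38.5 reads per Daxx-deleted and 24 to 37 per wild-type library.

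Daxx, the targeted gene, had 26, 28, 28 and 31 reads in Daxx-deleted libraries, against 45, 45, 48 and 51 in wild type. No Daxx-deleted library reached the lowest wild-type library. Its log2 fold change was -0.74 ± 0.20 (SE). The permutation p was 0.0286, which is as small as this design allows, and the limma adjusted p over all tested genes was 0.9997.

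Summed over the 248 members, the normalized counts were 15999, 15220, 14800 and 15217 in Daxx-deleted libraries, against 15318, 14987, 15271 and 15964 in wild type, and the ranges overlap. On the log2(normalized count + 1) scale used for all fold changes here, 119 members had a higher and 129 a lower mean in Daxx-deleted pancreas. A higher mean was thus found for 48.0% of members, beside 48.1% of all tested genes. The median log2 fold change was -0.0083 over the members and -0.0074 over all tested genes. With libraries scaled to equal totals both medians shifted to 0.11, and 175 members (70.6%) then had a higher mean.

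No member was called at an adjusted p under 0.05 by limma, where 0% of all tested genes were called. The smallest adjusted p of a member was 0.9997, and edgeR and DESeq2 called no member either. At an unadjusted limma p under 0.05 there were 7 members (2.82%), beside 2.88% of all tested genes. Of these, 5 were higher, beside a background of 1.32%, and 2 were lower, beside 1.57%. By edgeR 7 and by DESeq2 5 members lay under the same unadjusted threshold. The count depends on single libraries: it was 4 without wild-type replicate 3 and 11 without wild-type replicate 2.

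**Figure D1:**
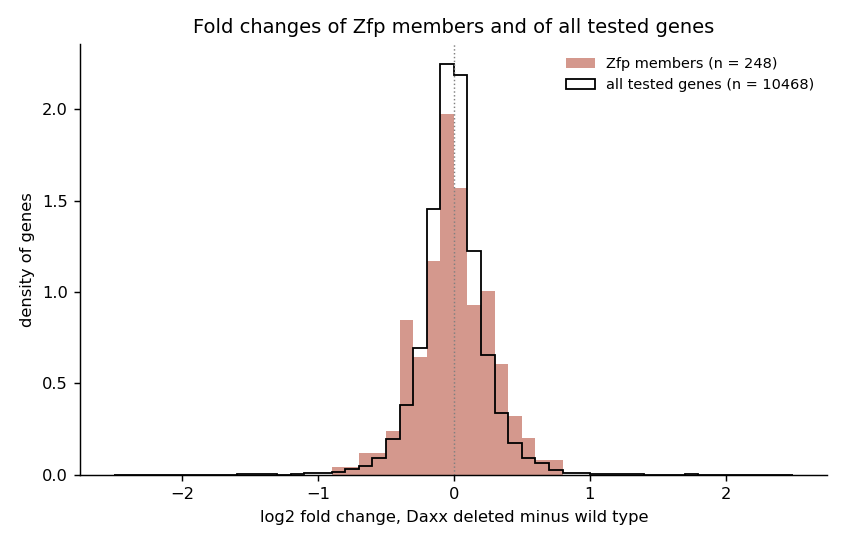
Log2 fold changes (Daxx deleted minus wild type) of the 248 Zfp members (filled) and of all 10468 tested genes (line), as densities in bins of equal width. Both centre near 0, with medians of -0.0083 and -0.0074, and the middle of the members' distribution is wider.

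The middle of the members' fold changes was wider than that of all tested genes, but their extremes were not. Their median absolute log2 fold change was 0.18, beside 0.12 for all tested genes. Their extremes were -0.89 for Zfp791 and 0.80 for Zfp955b, beside -2.30 and 2.83 over all tested genes. The 95% interval of the median member reached 0.56 log2 units to either side, or 1.48-fold, beside 0.41 log2 units over all tested genes. By level, the median reach was 0.78 log2 units for members averaging 10 to 20 normalized counts and 0.28 for the 13 averaging at least 200.

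The genotypes were fully separated, with no overlap between their 4 and 4 values, for 6 members (2.42%), beside 1.87% of all tested genes. Zfp13, Zfp955b and Zfp952 were the 3 higher ones, beside a background of 0.831%, and Zfp637, Zfp944 and Zfp174 the 3 lower ones, beside 1.04%. All values that follow for single genes are normalized counts per library. The genes were selected by their p in this comparison, so their values are a description.

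Zfp13, a KRAB protein with 8 fingers (ENSMUSG00000062012.14, chromosome 17, 23575844 to 23599487, minus strand, GRCm38), had 69.2, 63.3, 67.7 and 111 in Daxx-deleted libraries, against 44.9, 60.0, 37.0 and 62.0 in wild type. All Daxx-deleted libraries lay above all wild-type libraries, but narrowly, 63.3 against 62.0. Daxx-deleted replicate 4 lay far above the others. Its log2 fold change was 0.59 ± 0.22 (SE), with a limma unadjusted p of 0.0156 and an adjusted p of 0.9997.

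Zfp955b, with a KRAB box and 10 fingers (ENSMUSG00000096910.1, chromosome 17, 33289544 to 33307241, plus strand), lies 0.60 Mb from Daxx. It had 15.5, 13.3, 27.1 and 16.8 in Daxx-deleted libraries, against 7.05, 7.83, 11.7 and 13.3 in wild type. The lowest Daxx-deleted and the highest wild-type library nearly touch, and the gene rests on 6 to 26 reads per library. Its log2 fold change of 0.80 ± 0.35 (SE) was the largest positive one among the members. Of its exon bases, 12.2% overlap a pseudogene on the other strand.

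Zfp952, a KRAB protein with 9 fingers that lies 0.90 Mb from Daxx, had 28.9, 21.7, 19.8 and 27.3 in Daxx-deleted libraries, against 13.2, 16.96, 14.6 and 19.5 in wild type. The gap between the genotypes is narrow, 19.8 against 19.5. The log2 fold change was 0.57 ± 0.26 (SE).

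Zfp637, which has 6 fingers (ENSMUSG00000059689.15, chromosome 6, 117841180 to 117845956, plus strand), was the member with the smallest unadjusted p. It had 31.0, 34.2, 33.3 and 32.5 in Daxx-deleted libraries, against 38.8, 48.3, 48.7 and 54.9 in wild type. The Daxx-deleted values lie close together and all under the lowest wild-type value. Its fold change on the log2 scale was -0.52 ± 0.19 (SE). It had a limma unadjusted p of 0.0139, an adjusted p of 0.9997 and an exact permutation p of 0.0286.

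Zfp944, a KRAB protein with 11 fingers, had 9.29, 11.7, 11.5 and 4.1996 in Daxx-deleted libraries, against 15.9, 14.3, 13.6 and 18.6 in wild type. These are 4 to 21 reads per library. The log2 fold change was -0.78 ± 0.37 (SE), and -0.49 without Daxx-deleted replicate 4, the lowest library.

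Zfp174, a SCAN protein, had a mean of 20.1 ± 3.66 in Daxx-deleted and 28.4 ± 6.43 in wild-type libraries (SD, n = 4 each), with wild-type replicate 4 at 38.1. The genotypes all but touch, with the highest Daxx-deleted library at 24.775 and the lowest wild-type library at 24.781. That gap is smaller than the worth of 1 read. The log2 fold change was -0.47 ± 0.25 (SE).

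The other members with the smallest unadjusted p overlapped between the genotypes. Zfp503, known as Nolz1, a repressor in the developing striatum and limb, had 116, 187, 187 and 171 in Daxx-deleted libraries, against 116, 121, 133 and 120 in wild type. Daxx-deleted replicate 1 lies just under the wild-type values and the other 3 lie above them all. Its log2 fold change was 0.40 ± 0.16 (SE), and leaving out that library gave 0.56 with a limma adjusted p of 0.614, the smallest of any member under any setting run.

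Zfp142, with 36 fingers the member with the most (its human counterpart is linked to a neurodevelopmental disorder), averaged 102 ± 4.39 in Daxx-deleted and 80.2 ± 13.3 in wild-type libraries (SD, n = 4 each), and 18.5% of its exon bases overlap Plcd4 on the other strand. Zfp932, a KRAB protein that binds retroviral elements, averaged 18.5 ± 6.42 in Daxx-deleted and 11.04 ± 2.95 in wild-type libraries. Zfp668 averaged 30.5 ± 5.03 in Daxx-deleted and 21.9 ± 5.24 in wild-type libraries. Zfp24, a SCAN protein needed for myelination, averaged 90.8 ± 10.4 in Daxx-deleted and 73.7 ± 11.9 in wild-type libraries.

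On the lower side, Zfp277, which in mouse fibroblasts helps Polycomb proteins to repress the Ink4a/Arf locus, averaged 28.6 ± 7.003 in Daxx-deleted and 40.2 ± 4.02 in wild-type libraries. Zfp26 averaged 55.1 ± 10.6 in Daxx-deleted and 71.3 ± 12.4 in wild-type libraries. Zfp217, whose human counterpart is amplified in breast cancer, averaged 74.2 ± 7.14 in Daxx-deleted and 91.1 ± 11.01 in wild-type libraries. Zfp354a, a KRAB repressor first described in kidney, averaged 8.96 ± 2.54 in Daxx-deleted and 14.4 ± 2.24 in wild-type libraries. Among these 8 overlapping genes, the log2 fold changes ran from -0.65 for Zfp354a to 0.66 for Zfp932.

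Zfp791, a KRAB gene with 15 fingers, shows how a single library can set a fold change. It had 50.6, 43.3, 36.5 and 17.8 in Daxx-deleted libraries, against 48.5, 33.9, 186 and 57.5 in wild type. Without wild-type replicate 3 its log2 fold change was -0.39, against -0.89 ± 0.42 (SE) with it.

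**Figure D2:**
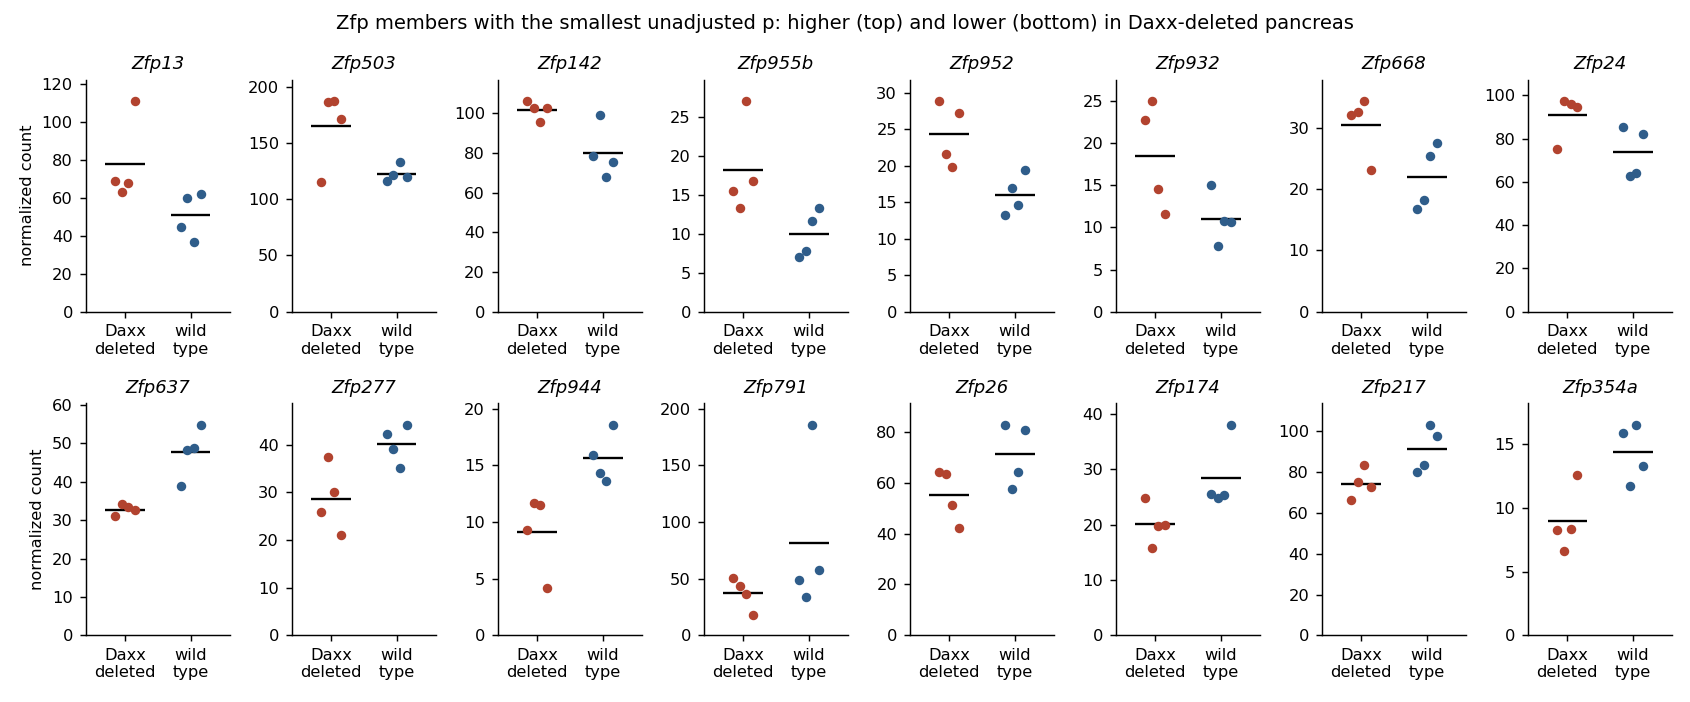
Normalized counts per library (points) and group means (bars) of the 8 members with the smallest unadjusted p that were higher (top row) and the 8 that were lower (bottom row), Daxx deleted left of wild type in every panel. Only Zfp13, Zfp955b, Zfp952, Zfp637, Zfp944 and Zfp174 have no overlap, and wild-type replicate 3 of Zfp791 stands apart at 186.

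The direction of these 16 genes and of Daxx was the same under every alternative setting in which each was tested. The 16 were chosen by their p in this comparison and the settings refit the same libraries, so a kept direction is no separate support.

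KRAB members had the lower levels. Per kilobase of annotated exon, the median normalized count was 4.89 for the 123 KRAB members and 9.98 for the 117 with neither domain, beside 14.8 for all tested genes. Of the KRAB members, 64 had a higher and 59 a lower mean in Daxx-deleted pancreas, with a median log2 fold change of 0.02. Of those with neither domain, 51 were higher and 66 lower, with a median of -0.03. The 23 other tested genes with a KRAB box had 9 higher and 14 lower and a median of -0.05. The unadjusted counts were 3 of 123 KRAB members, all higher, 4 of 117 with neither domain and 0 of 8 SCAN members (2.44%, 3.42% and 0%, beside 2.88% of all tested genes), with no call by adjusted p in any class. Whether the classes differ in fold change was not tested.

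Members had lower counts than most tested genes, with a median of 30.8 beside 71.2 over all tested genes, and both the spread within a genotype and the fold changes were larger at low counts. Within a genotype, the median SD of log2 values was 0.36 for the members, with 0.41 for KRAB members, and 0.27 for all tested genes. Among genes averaging 10 to 20 normalized counts it was 0.498 for the 77 members and 0.494 for all tested genes. Between 20 and 50 it was 0.388 for members and 0.346 for all tested genes. Between 100 and 200 it was 0.216 for members and 0.209 for all tested genes. Within these ranges the median SDs were thus close, with the widest gap between 20 and 50. The fold changes of members were wider in some ranges. Their median absolute value was 0.21 log2 units for members and 0.17 for all tested genes between 20 and 50, 0.15 for members and 0.12 for all tested genes between 50 and 100, and 0.11 for members and 0.07 for all tested genes at 200 or more. It was 0.22 for members and 0.24 for all tested genes between 10 and 20, and 0.09 for members and 0.08 for all tested genes between 100 and 200. Counts were not matched within a range. The median count was 28.9 for members and 32.7 for all tested genes between 20 and 50. At 200 or more it was 227 for members and 353 for all tested genes. Between 50 and 100 members were higher, at 75.3 beside 70.5. The differences in width were not tested.

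**Figure D3:**
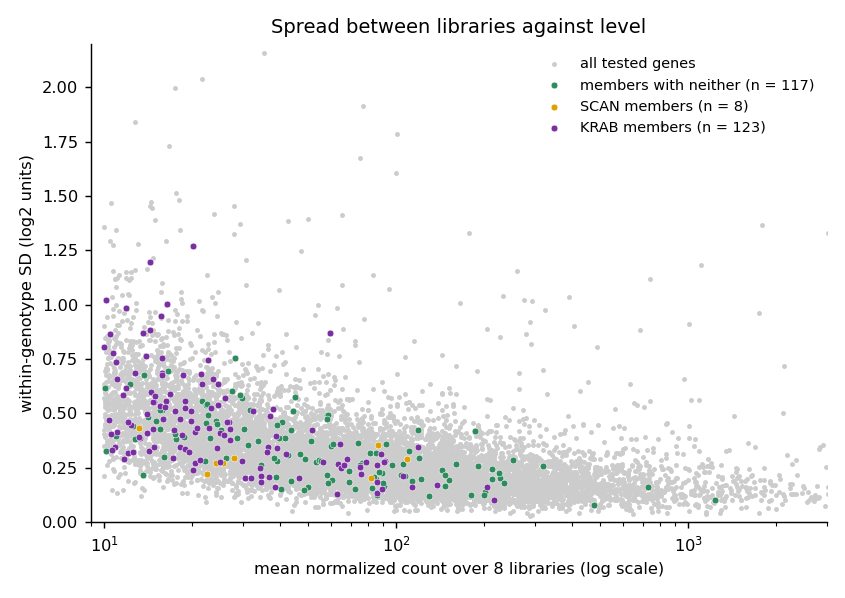
Within-genotype SD of log2 values against the mean normalized count (log axis) for members by class and for all tested genes (grey). Spread is larger at lower counts for all, and the KRAB members lie mostly under a mean of 50.

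The most abundant member by count per kilobase was Zfp706 at 147, a small protein found to oppose self-renewal in mouse embryonic stem cells. It averaged 709 ± 67.6 in Daxx-deleted and 753 ± 87.8 in wild-type libraries (SD, n = 4 each). Zfp106, an RNA-binding protein needed for motor neurons and muscle, followed at 119 per kilobase and averaged 1214 ± 69.6 in Daxx-deleted and 1262 ± 106 in wild-type libraries. Of its exon bases, 26.1% overlap a non-coding gene on the other strand.

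Zfp598, the ubiquitin ligase that marks collided ribosomes, ranked next at 58.2 per kilobase. It had 245, 197, 268 and 274 in Daxx-deleted libraries, against 174, 237, 216 and 204 in wild type. The genotypes overlap, and the log2 fold change was 0.24 ± 0.14 (SE). It was 0.16 without wild-type replicate 1 and 0.34 without Daxx-deleted replicate 2. Zfp740 had 45.9, Zfp687 37.9 and Zfp503 34.1 per kilobase. Zfp687, which with Zfp592 and Zmynd8 forms a transcriptional repressor complex, averaged 238 ± 25.046 in Daxx-deleted and 212 ± 40.6 in wild-type libraries, and Zfp592 averaged 179 ± 19.3 in Daxx-deleted and 182 ± 11.9 in wild-type libraries.

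Of a list of 45 Zfp genes with a known role, 43 were members and Zfp57 and Zfp708 were not. Among the 43, 23 had a higher and 20 a lower mean in Daxx-deleted pancreas, the median log2 fold change was 0.02, and 1, Zfp952, had an unadjusted limma p under 0.05 (2.33%, beside 2.88% of all tested genes). None was called. The list is not complete and was chosen with earlier results of these data known. Zfp503 and Zfp277, which are not on it, lay under the same threshold.

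Among those that silence DNA, Zfp445, a KRAB protein that keeps imprints together with Zfp57, averaged 215 ± 15.5 in Daxx-deleted and 216 ± 14.9 in wild-type libraries. Its log2 fold change was -0.01 ± 0.12 (SE). Zfp568, which represses a placental transcript of Igf2, had 90.8, 96.6, 119 and 105 in Daxx-deleted libraries, against 145, 116, 114 and 120 in wild type, with overlap and a log2 fold change of -0.26 ± 0.14 (SE).

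Zfp809, which recognises the primer binding site of murine leukaemia proviruses and silences them, had 69.2, 50.8, 56.2 and 72.4 in Daxx-deleted libraries, against 37.9, 47.0, 54.5 and 62.9 in wild type. The ranges overlap, and the log2 fold change was 0.30 ± 0.20 (SE). With 1 library left out it ran from 0.17, without wild-type replicate 1, to 0.41. Zfp638, which in human cells brings the HUSH complex to unintegrated retroviral DNA, averaged 157 ± 22.2 in Daxx-deleted and 164 ± 36.4 in wild-type libraries. Zfp644, which guides the methyltransferases Ehmt2 and Ehmt1, averaged 203 ± 33.7 in Daxx-deleted and 225 ± 24.9 in wild-type libraries.

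Among regulators of transcription, Zfp410 is known for a single main target, the remodeler gene Chd4. Zfp410 averaged 87.2 ± 10.2 in Daxx-deleted and 91.5 ± 16.8 in wild-type libraries, and Chd4 averaged 792 ± 32.2 in Daxx-deleted and 835 ± 47.0 in wild-type libraries. Neither differed beyond the spread between libraries. Zfp148, which binds GC-rich promoters, averaged 247 ± 51.4 in Daxx-deleted and 256 ± 46.0 in wild-type libraries. Zfp143, a promoter-bound activator found at chromatin loops, averaged 29.4 ± 7.85 in Daxx-deleted and 30.8 ± 9.42 in wild-type libraries.

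Zfp423, which marks fat cell precursors, averaged 15.2 ± 8.03 in Daxx-deleted and 12.2 ± 5.07 in wild-type libraries, and its counterpart Zfp521 averaged 15.99 ± 4.97 in Daxx-deleted and 15.2 ± 5.57 in wild-type libraries. The brown fat activator Zfp516 averaged 108 ± 21.4 in Daxx-deleted and 104 ± 16.9 in wild-type libraries. Summed fat cell markers ran from 59.8 to 283 in Daxx-deleted and from 74.4 to 168 in wild-type libraries, and their part in these 3 genes was not tested.

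Among proteins that act outside chromatin, Zfp91, a ubiquitin ligase of NF-kappaB signalling, averaged 300 ± 49.1 in Daxx-deleted and 338 ± 60.9 in wild-type libraries, with 8.43% of its exon bases shared with Cntf on the same strand. Zfp622, a factor of large ribosomal subunit maturation, averaged 60.9 ± 9.64 in Daxx-deleted and 55.9 ± 4.71 in wild-type libraries. Zfp207, which helps Bub3 in mitosis, averaged 191 ± 60.2 in Daxx-deleted and 182 ± 43.6 in wild-type libraries. The other members of the list had log2 fold changes between -0.32 for Zfp512 and 0.63 for Zfp750. Both depended on single libraries, in either direction. The value for Zfp512 was -0.21 without wild-type replicate 3 and -0.46 without wild-type replicate 4. For Zfp750 it was 0.29 without Daxx-deleted replicate 4 and 1.02 without wild-type replicate 2.

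The members lie unevenly on the genome. Chromosome 7 holds 63 of them, 25.4% of members against 7.52% of tested genes, and chromosome 17, which also carries Daxx, holds 31, 12.5% against 4.91%. No member on chromosome 7 was under an unadjusted p of 0.05, and its 63 members had a median log2 fold change of -0.02.

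On chromosome 17, 4 of 31 members did not overlap between the genotypes (Zfp13, Zfp955b, Zfp952 and Zfp944), and 3 of these, all higher, were under an unadjusted limma p of 0.05. These 3 are 9.68% of the members there, beside 4.86% of all tested genes of chromosome 17 and 2.78% of those elsewhere. Over all 514 tested genes of that chromosome 16 did not overlap (3.11%), and over the 9954 tested genes elsewhere 180 (1.81%). The 514 include the members and Daxx. Among the 482 others, 4.36% were under the unadjusted threshold, 11 did not overlap (2.28%) and the median log2 fold change was 0.004. Off chromosome 17, 2 of 217 members did not overlap (0.922%). Of the 31 members, 19 were higher and 12 lower, with a median log2 fold change of 0.11, beside a median of 0.01 for the tested genes of the chromosome.

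A group of 8 neighbouring members, Zfp871, Zfp799, Zfp870, Zfp952, Zfp563, Zfp955b, Zfp81 and Zfp101, lies within 2 Mb of Daxx (chromosome 17, 32765496 to 33394641). Of these, 5 were higher and 3 lower in Daxx-deleted pancreas, from 0.80 for Zfp955b to -0.48 for Zfp563 on the log2 scale, so neighbours did not share a direction. Of the 88 tested genes within the same distance, Daxx left out, 59 were higher and 29 lower, with a median log2 fold change of 0.09. These 88 include the 8 members. Among the other 80, 54 were higher and 26 lower, the median was also 0.09, and 1 did not overlap. The genotype of this stretch, other than at Daxx itself, is not given in the labels, and its part in these values was not tested.

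**Figure D4:**
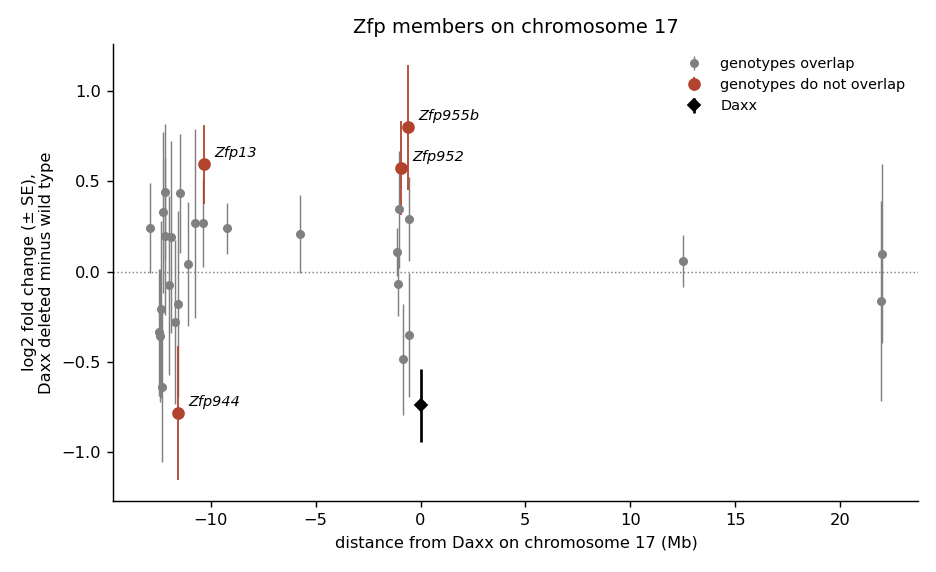
Log2 fold change (± SE) of the 31 members on chromosome 17 against their distance from Daxx in Mb, with Daxx as a diamond. The members whose genotypes do not overlap are coloured: Zfp955b and Zfp952 lie within 1 Mb of Daxx, and Zfp13 and Zfp944 lie about 10 to 12 Mb away.

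Members that lie within 500 kb of the next Zfp gene form 13 clusters of at least 4 members, with 98 members in all, while 99 members lie alone. In the clusters described here, chosen after their values were seen, many members were high or low in the same animals. The share of KRAB members above their own mean also differed between animals, though these members include those of the clusters. Of all 123, 68.3%, 56.9%, 43.1% and 45.5% were above their own mean in Daxx-deleted libraries, against 59.3%, 37.4%, 42.3% and 63.4% in wild type. Whether a cluster varies together beyond this was not tested, nor was the part of sex.

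The largest cluster, on chromosome 17 from Zfp160 to Zfp13 (21008903 to 23599487), has 18 members, 17 with a KRAB box. The number of them above their own mean over the libraries was 11, 15, 6 and 7 in Daxx-deleted libraries, against 15, 5, 4 and 14 in wild type. Both genotypes thus hold libraries with most and libraries with few members above their mean, and the median log2 fold change was 0.12.

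Zfp40 of this cluster had 8.26, 10.8, 9.37 and 12.6 in Daxx-deleted libraries, against 17.6, 2.61, 4.87 and 17.7 in wild type. The 4 wild-type libraries split into a high and a low pair, and the low ones rest on few reads, 2 at the least. Zfp943 had 17.5, 17.5, 11.5 and 14.7 in Daxx-deleted libraries, against 14.1, 2.61, 20.4 and 32.8 in wild type, again with wild-type replicate 2 the lowest and replicate 4 the highest. Zfp758 had 16.5, 32.5, 6.25 and 6.30 in Daxx-deleted libraries, against 28.2, 6.52, 12.7 and 15.9 in wild type, so that here both genotypes span nearly the same range. These 3 genes were chosen after their values were seen.

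The chromosome 13 cluster from Zfp595 to Zfp65 (67312998 to 67729173) has 8 members, all with a KRAB box. All 8 were above their own mean in Daxx-deleted replicate 1 and 1 of 8 in Daxx-deleted replicate 4, with median deviations of 0.73 and -0.75 on the log2 scale. Daxx-deleted replicates 2 and 3 had 6 and 3 members above their mean, with median deviations of 0.37 and -0.30. The wild-type libraries had 6, 1, 6 and 5 members above their mean. Within it, Zfp729a, with 27 fingers, had 31.0, 33.3, 29.2 and 9.45 in Daxx-deleted libraries, against 14.1, 10.4, 23.4 and 31.0 in wild type. Zfp65 had 18.6, 11.7, 9.37 and 1.05 in Daxx-deleted libraries, against 11.5, 7.83, 9.74 and 11.5 in wild type, the lowest of these being a single read. The cluster's median log2 fold change was 0.04, with 4 members higher and 4 lower.

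**Figure D5:**
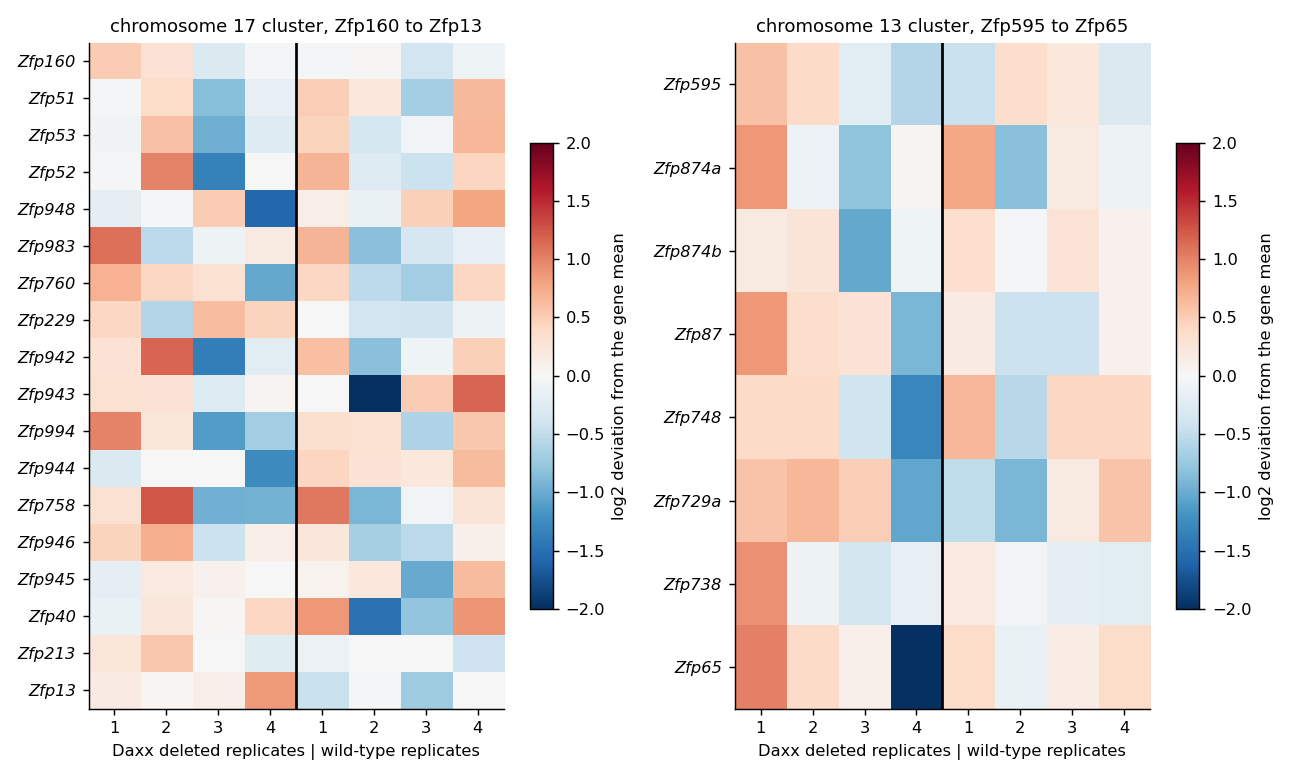
Log2 deviation of each member from its own mean over the 8 libraries (red above, blue below), in genome order down the page, with the Daxx-deleted replicates left of the line and the wild-type replicates right of it. Columns of like colour show members high or low together in an animal, such as Daxx-deleted replicates 1 and 4 on chromosome 13, within both genotypes.

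In the chromosome 7 cluster from Zfp551 to Zfp446, 6 of 6 members had a higher mean in Daxx-deleted pancreas, beside 48.1% of all tested genes. Their median log2 fold change was 0.26, and none was under an unadjusted limma p of 0.05. The number above their own mean was 6, 1, 4 and 5 in Daxx-deleted libraries, against 2, 4, 2 and 4 in wild type. This cluster, 1 of 13, was chosen after its values were seen. In the chromosome 8 cluster from Zfp709 to Zfp961, 4 of 4 members were also higher, with a median of 0.07. Neighbouring KRAB genes are similar in sequence, and whether their reads were assigned to one another was not tested. Members of a cluster are not treated as independent here.

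Over all KRAB members the median deviation from the gene's own mean was 0.17, 0.03, -0.06 and -0.05 log2 units in Daxx-deleted libraries, against 0.11, -0.13, -0.03 and 0.11 in wild type. Over all tested genes it lay between 0.00 and 0.01 in every library. KRAB members were thus highest in Daxx-deleted replicate 1, also among those averaging 20 to 50 (0.20) and at least 50 (0.15). Wild-type replicate 2 had the fewest reads, 7705789, and Daxx-deleted replicate 1 had 7721994. The part of depth in these deviations was not tested. The low value of wild-type replicate 2 was smaller at higher counts. It was -0.02 between 20 and 50, where wild-type replicate 3 was lowest at -0.08, and -0.04 at 50 or more, where Daxx-deleted replicate 2 was lowest at -0.06. Members without KRAB were also raised in Daxx-deleted replicate 1 (0.08) and in wild-type replicate 4 (0.10). Daxx-deleted replicate 1 had the lowest share of reads on the 20 most abundant genes, 74.7%, and the part of that share in the deviations was not tested.

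The members with the largest within-genotype spread at a mean of at least 20 were Zfp949, Zfp791, Zfp729a and Zfp750. Zfp949, a KRAB gene, had 15.5, 19.99, 16.7 and 36.7 in Daxx-deleted libraries, against 23.8, 1.304, 17.5 and 29.2 in wild type. Its low library, wild-type replicate 2, held a single read, and without it the log2 fold change was -0.13, against 0.71 ± 0.63 (SE) with it. Zfp750, a regulator of epidermal differentiation, had 27.9, 24.99, 19.8 and 61.9 in Daxx-deleted libraries, against 13.2, 45.6, 13.6 and 16.8 in wild type. Each genotype holds 1 library well above its others. No member at this level had a gap of 1 log2 unit or more that parted the libraries with at least 2 on either side.

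The partners of the KRAB proteins held no call either. Of 41 genes listed for the KRAB pathway, heterochromatin, SUMO and the Daxx complex, 38 were tested, 20 higher and 18 lower in Daxx-deleted pancreas, with a median log2 fold change of 0.00. Of these, 2 had an unadjusted limma p under 0.05, the deleted gene Daxx itself and Ehmt1. Without Daxx it was 1 of 37 (2.70%), beside 2.88% of all tested genes. Ehmt1, an H3K9 methyltransferase, averaged 187 ± 10.5 in Daxx-deleted and 148 ± 10.4 in wild-type libraries without overlap, a log2 fold change of 0.34 ± 0.12 (SE).

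The corepressor Trim28 averaged 314 ± 37.9 in Daxx-deleted and 329 ± 14.6 in wild-type libraries (SD, n = 4 each). Its partner Setdb1 averaged 136 ± 21.4 in Daxx-deleted and 130 ± 15.8 in wild-type libraries. Atrx, which acts with Daxx, averaged 253 ± 44.1 in Daxx-deleted and 252 ± 37.4 in wild-type libraries. The HP1 gene Cbx5 averaged 282 ± 56.5 in Daxx-deleted and 349 ± 51.5 in wild-type libraries, with overlap between the genotypes. Its log2 fold change was -0.32 ± 0.15 (SE). With 1 library left out it ran from -0.41 to -0.21, the latter without Daxx-deleted replicate 3.

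Zinc finger genes of other families, 71 taken by name (Zbtb, Zscan, Zkscan, Klf, Sp, Gli and Ikzf), had 37 higher and 34 lower means and a median log2 fold change of 0.01. None was called, and 2 had an unadjusted limma p under 0.05, both lower (2.82%, beside 2.88% of all tested genes). Klf6, an early response factor, averaged 110 ± 24.8 in Daxx-deleted and 195 ± 109 in wild-type libraries, and Klf11 averaged 34.6 ± 15.6 in Daxx-deleted and 56.8 ± 22.7 in wild-type libraries. The genotypes overlap for both, and wild-type replicate 3 was the highest library for each. Without it the log2 fold change was -0.36 for Klf6, against -0.69 ± 0.30 (SE) with it, and -0.48 for Klf11, against -0.72 ± 0.29 (SE) with it. Among the 7 genes left out by the Zfp36 prefix, 3 bind RNA through fingers of another kind and trigger its decay. Of these, Zfp36l1 averaged 97.3 ± 5.51 in Daxx-deleted and 73.2 ± 8.86 in wild-type libraries, a log2 difference of 0.41 ± 0.15 (SE) at a limma unadjusted p of 0.0136 and an adjusted p of 0.9997.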

How the data were processed

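The table deposited by the authors gives a signal per gene and library, which the values show to be read counts over a size factor. The tools named, per the submitters' processing notes, are STAR 2.6.0b and DESeq2, with the build GRCm38. The sources used here do not name the read counter or its strand setting. Dividing by each library's step gave whole reads for 100% of values within 0.001. Genes averaging at least 10 over the 8 libraries were tested, 10468 of 11789. limma 3.58.1 (R 4.3.3, with trend) was fitted to log2(value + 1) with genotype as the only term, two-sided, with Benjamini-Hochberg adjustment over all tested genes, and was tested on simulated data. The scale understates fold changes of low counts. The exact permutation test used 70 relabellings, with 0.0286 as its smallest p. No pair of libraries of 1 genotype agreed within counting noise, so all 8 were kept. Replicates were numbered in accession order and pair nothing.

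Coordinates, exon lengths and coding sequences came from GENCODE M21 (GRCm38), which matched 11781 of the table's gene IDs without their version. A finger is 2 cysteines 2 to 4 residues apart, 12 residues, then 2 histidines 3 to 5 residues apart, and KRAB and SCAN were found by sequence patterns, so class numbers depend on them. Levels between genes are per kilobase of all annotated exons. Genes were named by rule: the 8 smallest unadjusted p per direction, the 6 highest counts per kilobase, the 4 widest spreads, the genes beside the minimum and a list with known roles. The members and lists were chosen with earlier results of these data known. Alternatives were pseudocounts, scalings, filters, variance options, a Y-linked covariate, count models of the recovered reads (edgeR 4.0.16, DESeq2 1.42.0), and each library left out.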

Additional observations from a re-analysis of the deposited data

Results flagged for a closer look

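For the 62 named genes, Daxx among them, 124 groups of 4 libraries were screened for a library whose gap to its nearest neighbour, over the group's range, exceeded Dixon's 95% critical value. For groups not chosen by their values, chance gives about 1 in 20, or 6.2, and 7 were found. Genes chosen by their p or their spread are among those screened, so this rate does not hold for all groups. In Daxx-deleted pancreas, replicate 4 of Zfp13 stood at 111 normalized counts with the others at 63.3 to 69.2. Replicate 1 of Zfp24 stood at 75.4 with the others at 94.5 to 97.5, and replicate 2 of Zfp395 at 88.3 with the others at 128 to 130.2. In wild type, replicate 3 of Zfp791 stood at 186 with the others at 33.9 to 57.5, and replicate 3 of Zfp462 at 16.6 with the others at 23.5 to 24.8. Replicate 4 of Zfp174 stood at 38.1 with the others at 24.8 to 25.6, and replicate 2 of Zfp750 at 45.6 with the others at 13.2 to 16.8. The flags fell on 6 of the 8 libraries.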

How the results depend on the processing

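No member was called under any alternative, an adjusted p under 0.10 included, and the smallest adjusted p of a member was at least 0.614. With equal library totals the median log2 fold change moved to 0.11, beside 0.11 for all tested genes, with 175 of 248 members (70.6%) higher instead of 48.0%, so the members moved with the shift of all genes. The 7 members under an unadjusted p of 0.05 became 12 with array weights and 3 with a minimum mean of 50, where 87 members were tested. Leaving out 1 library gave 4 to 11 such members, medians of -0.03 to 0.02 and no call. The other settings kept the count within 5 to 9. The cause of the array weight count was not tested. Among recomputed single-gene fold changes, 1388 kept their direction or stayed within the spread between libraries, and 5 did not, Zfp106, Zfp445, Zfp652, Chd4 and Ehmt1 with equal totals. The 1388 include changes of sign within that spread when 1 library was left out. Without wild-type replicate 2, Zfp949 went from 0.71 to -0.13 log2 units. Without Daxx-deleted replicate 4, Zfp462 went from -0.07 to 0.28. Recomputed fold changes of genes outside the members were added after the data were seen. No paired analysis was possible because the labels give no shared replicate numbers. A member rests on a median of 24 to 38.5 reads per library. The part of depth in the lack of calls was not tested.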
